A study of Capra hircus with 12 samples.

Results

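Testes of black goats (Capra hircus) were compared between prepuberty (3 libraries, titles with D30) and puberty (2 libraries, titles with D90), which are 5 of the 11 libraries used here from a series that also holds neonatal and postpuberty testes. All animals were labelled wild type, and no treatment was given. The libraries were built from total RNA with a preparation kit meant for long non-coding RNA. Each table gave 1 FPKM per locus, the fragments per kilobase of its length, divided by the size of the library. Puberty replicate 1 was not analysed here, so the puberty libraries carry the numbers 2 and 3. Loci entered the comparison when their FPKM was at least 1 in at least 2 of the 5 libraries, which kept 7754 of 24116 listed loci. Of the 16362 left out, 595 were listed at 0 in all 5 libraries. The loci nearest that limit were MSTRG.328441, with 1.00022 FPKM in its second highest library, and MSTRG.344907, with 0.999915, which was left out.

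In the immature testis the seminiferous cords hold Sertoli cells and early germ cells, and at puberty germ cells enter meiosis and go on to form spermatids and sperm. Meiotic and later germ cells are known for transcribing an unusually wide part of the genome, long non-coding RNAs included, while Sertoli and interstitial cells come to make up a smaller part of the organ. In whole testis, fewer cells of a type and less RNA per cell cannot be told apart. The loci carried assembly identifiers, with 6908 of the tested ones named in StringTie's MSTRG style and 846 named gene followed by a number. None of them matched a gene symbol (0 loci), so the markers of testis cell types were not looked up, and the loci are described by their levels, sizes of change and identifiers.

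The libraries were of similar depth within each age. Reads recovered from the steps in the values gave scaling totals, the library sizes behind the FPKM, of 25512691 to 26802945 in prepuberty and 34526409 to 35614224 in puberty. Across the tested loci, log2(FPKM + 1) correlated at 0.948 to 0.964 between prepuberty libraries and at 0.935 between the puberty libraries (Pearson r across loci, which are not replicates). Prepuberty replicate 1 stood apart in its traces of puberty loci. Of the 849 loci that reached 1 FPKM in both puberty libraries and had no read in prepuberty replicates 2 and 3, 285 (33.6%) had a read in replicate 1. The same count for replicate 2 was 85 of 649 (13.1%), and for replicate 3 it was 79 of 643 (12.3%). In all 3 cases the level was low, at 0.577%, 0.317% and 0.267% of the mean puberty level. Folds of loci near 0 in prepuberty are therefore also given without replicate 1.

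The loci called lay mostly among those that reached 1 FPKM in a single age. By limma, a linear model with a shared estimate of the spread, 2601 of the 7754 loci (33.5%) rose and 1674 (21.6%) fell, at a Benjamini-Hochberg adjusted p under 0.05 and a log2(FPKM + 1) change of 1 or more. Either way, 55.1% were called, and 3479 loci were not. That share depends on the filter: 3067 rises and 1681 falls were called among 12954 loci with the filter over all libraries, and 3086 and 1676 among 23521 loci with no filter. Both puberty libraries lay above all 3 prepuberty libraries for 40.8% of the loci and below them for 48.4%, so the groups did not overlap for 89.2% of them. On this scale the rises had a median of 1.59 (quartiles 1.28 and 2.17) against -1.31 (quartiles -1.62 and -1.13), beside -0.30 over all tested loci. On this scale 809 rises and 165 falls were of at least 4-fold, and 46 rises and 2 falls of at least 32-fold. The scale compresses changes of low loci in both directions.

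The balance of rises and falls rested on the scaling between libraries and on the pseudocount. Of the calls, 60.8% were rises with the authors' scaling, 75.6% under median of ratios scaling, 53.5% after rescaling to TPM and 48.3% under quantile normalization. With the same choices the median change of all tested loci was -0.30, 0.05, -0.18 and -0.43. TPM changed more than the scaling between libraries. The FPKM of the 5 libraries summed to 55125 to 78774, and TPM raised all values before 1 was added. It thus also acted as a smaller pseudocount, and the 2 effects were not separated. A smaller pseudocount of 0.1 raised the falls to 3106 and left 2950 rises (48.7% of calls). No locus called in the report's setting was called in the opposite direction in any of the 16 alternatives (0 loci).

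**Figure D1:**
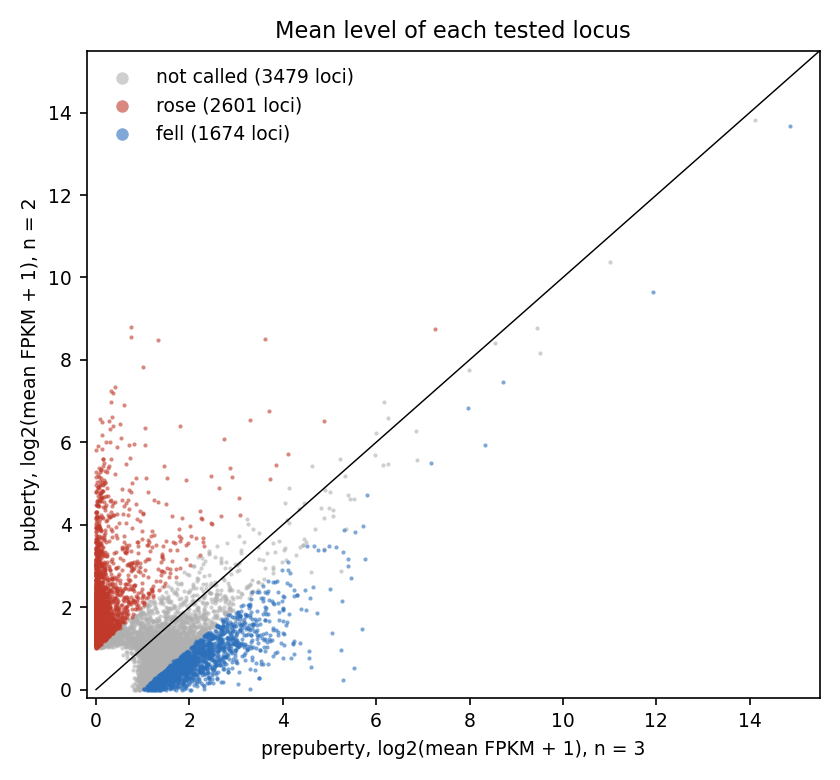
Each point is 1 of the 7754 tested loci, with the prepuberty mean (n = 3) on the x axis and the puberty mean (n = 2) on the y axis, both as log2(mean FPKM + 1), and the line marks equal levels. Loci that rose (2601) crowd at the left edge, near 0 in prepuberty, and loci that fell (1674) spread along the bottom.

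Rises and falls came from loci of different starting level. The median locus that rose stood at 0.0429 FPKM in prepuberty and 2.44 in puberty, and the median locus that fell went from 2.97 to 0.508. Of 564 loci listed at 0 in prepuberty, all 564 rose, and of 1168 loci with a mean above 0 and up to 0.1 FPKM, 1147 rose (98.2%). Among 4421 loci at 1 to 10 FPKM, 107 rose (2.42%) and 1543 fell (34.9%), and among 187 loci at 10 to 100 FPKM, 6 rose and 125 fell (66.8%). The filter sets much of this pattern. A locus at 0 in prepuberty had to reach 1 FPKM in both puberty libraries to be tested, which is a log2 change of 1 or more, and a locus under 1 FPKM in prepuberty cannot fall by 1. By the way they passed, 2770 loci had an FPKM of at least 1 in puberty only (2434 rose) and 2654 in prepuberty only (1139 fell). This selection put at least 2 libraries of 1 age at or above 1 FPKM and all of the other age below, by any margin. Of these loci, 336 and 1515 were not called.

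**Figure D2:**
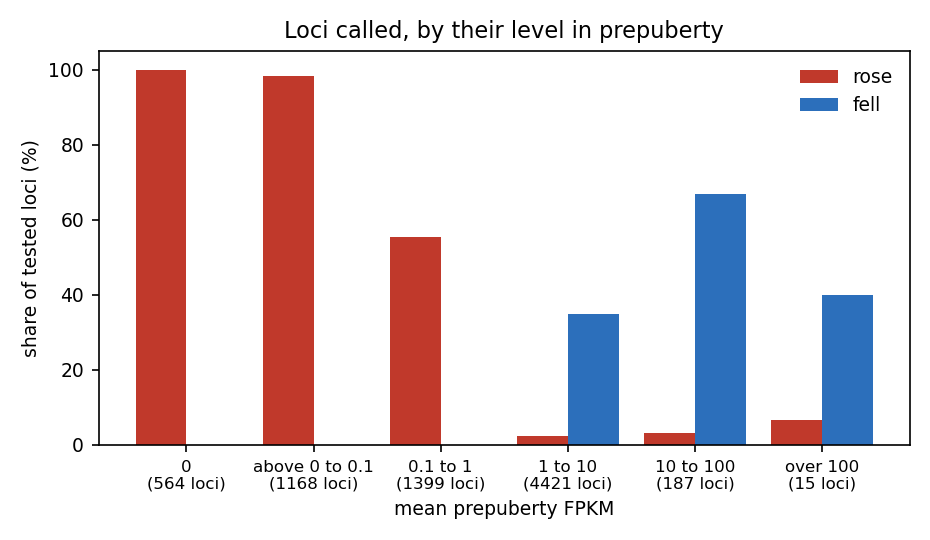
The bars give the share of tested loci that rose or fell (y axis, %) in each class of mean prepuberty FPKM (x axis, with the number of loci). Rises make up 100% and 98.2% of the lowest classes and 2.42% of the class from 1 to 10 FPKM, in which 34.9% fell.

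The 1283 loci with at least 1 FPKM in all 5 libraries passed the filter in both ages alike. Of these, 84 rose (6.55%) and 314 fell (24.5%), beside 33.5% and 21.6% of all tested loci, with a median change of -0.44. Under median of ratios scaling 150 of them rose and 152 fell, with a median of -0.02. Under TPM, which also acts as a smaller pseudocount, the numbers were 149 and 307. Median of ratios scaling assumes no typical change among loci above 0 in all 11 libraries, a set that differs from these 1283. The split under it therefore cannot decide whether falls were in excess. Quantile normalization gave 71 rises and 398 falls.

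Among loci that rose, the 5 most abundant in puberty were gene13049, gene21247, MSTRG.337006, gene6709 and gene21344. In prepuberty replicates 1, 2 and 3, gene13049 (implied length 313 bases) had 1.55, 0.376 and 0.120 FPKM, and in puberty replicates 2 and 3 it had 440.7 and 439.8. It was near 0 in prepuberty and almost equal in the puberty pair, and its log2 change of 8.13 had an SE of 0.29 (limma adjusted p = 1.57e-09), the largest of all tested loci. The ratio of means was 646, and 1778 without prepuberty replicate 1. MSTRG.337006 (1120 bases) had 1.57, 0.245 and 0.200 FPKM in prepuberty and 259 and 487 in puberty. Its puberty libraries differed by more than those of gene13049, and both lay far above prepuberty (log2 change 7.83 ± 0.34, limma adjusted p = 7.63e-09). Its ratio of 557 became 1676 without prepuberty replicate 1. gene21344 (1040 bases) had 2.80, 1.17 and 0.612 FPKM in prepuberty and 334 and 376 in puberty, with a ratio of 232, or 399 without prepuberty replicate 1.

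The other 2 of these abundant loci were already present before puberty. gene21247 (372 bases) had 140, 150 and 164 FPKM in prepuberty and 437 and 424 in puberty. The groups did not overlap, and the rise was 2.84-fold (limma adjusted p = 3.45e-06). gene6709 (772 bases) had 12.3, 10.7 and 11.05 FPKM in prepuberty and 319 and 402 in puberty, a rise of 31.7-fold (limma adjusted p = 5.24e-10). In neonatal testes gene6709 was at 8.24 ± 0.196 FPKM (SD, n = 3) and gene21247 at 120 ± 5.97, so both were present at each age measured.

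MSTRG.381237 and gene4459 complete the 5 largest rises. MSTRG.381237 (462 bases) had 0.888, 0.0848 and 0 FPKM in prepuberty, 12 reads in all, and 166 and 155 in puberty. Without prepuberty replicate 1 a single read remained in that group, and the ratio of 494 became 3780 with a 95% exact Poisson interval from 678 to 149310, for counting error only. gene4459 (446 bases) had 9 reads in prepuberty replicate 1, 0.753 FPKM, and none in replicates 2 and 3, against 157 and 143 FPKM in puberty. Its ratio was 597 with all libraries, and without prepuberty replicate 1 it was at least 1163-fold higher, with 3 reads over the group taken as the floor. In both loci the prepuberty signal lay mostly or wholly in replicate 1.

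**Figure D3:**
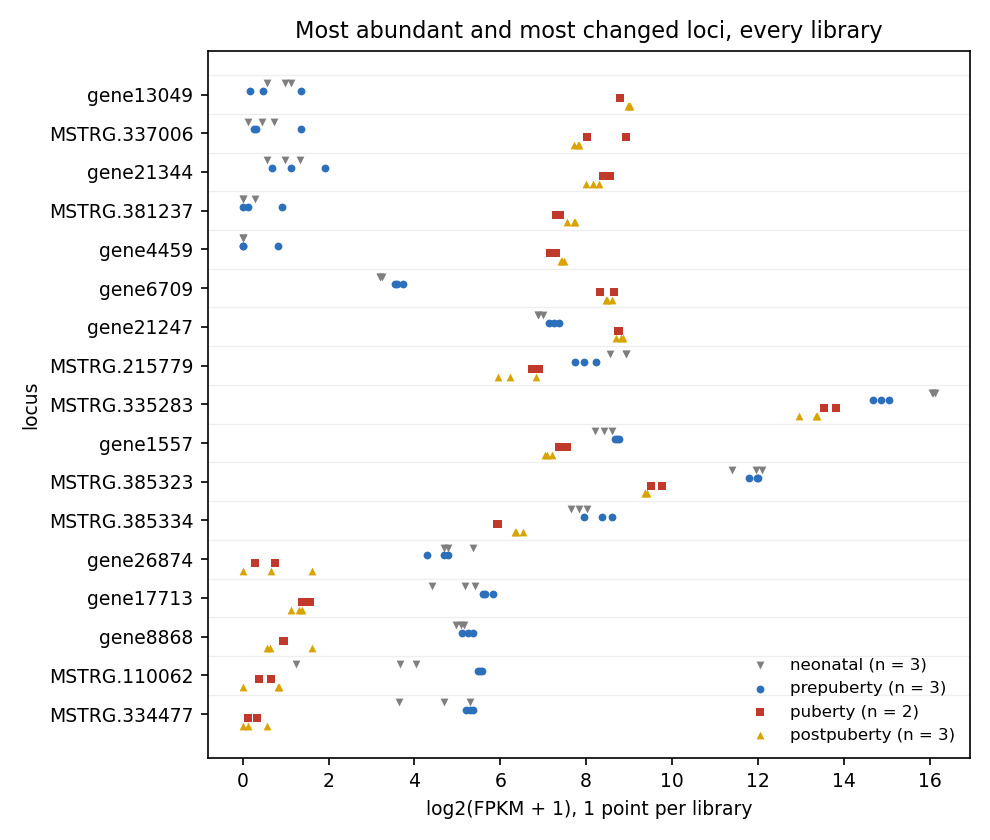
Each symbol is 1 library's level, as log2(FPKM + 1) on the x axis, for the 5 most abundant and the 5 most changed loci that rose and fell (rows), with symbols for the 4 ages. Prepuberty and puberty symbols do not overlap in any row, and neonatal symbols can lie apart from prepuberty ones, as in MSTRG.110062 (11.7, 1.38 and 15.4 FPKM in neonatal against 43.9 to 46.3 in prepuberty).

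The lowest adjusted p belonged to MSTRG.176490, MSTRG.240383 and MSTRG.265898, which all rose (limma adjusted p = 2.23e-10 for each). MSTRG.176490, a locus with an implied length of 19925 bases, went from 0.165, 0.0433 and 0.0451 FPKM to 36.1 and 42.3, and its puberty level rested on 54720 reads. MSTRG.240383 (2602 bases) went from 0.201, 0.0151 and 0.0575 FPKM to 64.2 and 79.5. MSTRG.265898 (1401 bases) had 0.107 FPKM in prepuberty replicate 1, 4 reads, none in the other two, and 29.9 and 28.2 FPKM in puberty. Their levels differed little within puberty beside the distance to prepuberty. The ratios were 465 for MSTRG.176490 and 789 for MSTRG.240383, and without prepuberty replicate 1 they were 887 and 1980. For MSTRG.265898 the ratio was 819 with all libraries, 546 without prepuberty replicate 2 or 3, and at least 709-fold without prepuberty replicate 1.

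A group of 564 loci had no read in the 79039193 reads of the 3 prepuberty libraries and at least 1 FPKM in both puberty libraries, which summed to 70140633 reads. With 3 reads over the prepuberty libraries taken as the floor, they were at least 80.1-fold higher in the median, and 8 of them had a gene number. Without prepuberty replicate 1, 849 loci showed the pattern. In libraries of the other ages, 427 of the 564 had no read in neonatal testes and 478 had at least 1 FPKM in all 3 postpuberty libraries. Of all 24116 listed loci, 63.7% to 66.2% were above 0 in a neonatal library. From 7962 to 9226 had at least 1 FPKM in a postpuberty library. These values are for single libraries, so they are not a like measure for counts that need all 3 libraries. The 3 with the largest bounds, picked after their values were seen, were MSTRG.39753, MSTRG.80268 and MSTRG.207513. MSTRG.39753 (10932 bases) had 5.40 and 2.90 FPKM in puberty, from 2103 and 1094 reads, at least 1195-fold higher than prepuberty. MSTRG.80268 (4992 bases) had 14.4 and 3.56 FPKM, a wide gap within puberty, and was at least 1184-fold higher, or at least 469-fold without puberty replicate 2 and at least 1900-fold without puberty replicate 3. MSTRG.207513 (5142 bases) had 5.96 and 11.1 FPKM and was at least 1157-fold higher. With prepuberty replicate 1 or 3 left out, the bounds of the 3 loci lay between 765 and 791, since the floor then covers fewer reads. The 3 loci do not share which puberty library was the higher.

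The reverse pattern, at least 1 FPKM in all 3 prepuberty libraries and no read in puberty, was found for 10 loci, none with a gene number (0 loci). Of all 24116 listed loci, 63.9% to 67.7% were above 0 in a prepuberty library. The shares were 89.6% and 86.4% in puberty replicates 2 and 3, so a locus without a read was rarer in puberty at large. MSTRG.273926 (9208 bases), also picked after its values were seen, had 1.94, 1.63 and 1.93 FPKM in prepuberty, from 480, 382 and 475 reads. It was at least 395-fold lower in puberty over both libraries, with bounds of 194 and 200 against a single one, and had 0.125 ± 0.147 FPKM (SD, n = 3) in neonatal testes. MSTRG.195938 (1156 bases) had 1.001, 1.63 and 1.75 FPKM and was at least 39.4-fold lower, or at least 19.4-fold and 20.02-fold with 1 puberty library left out. In the neonatal libraries it stood at 2.18 ± 0.439 FPKM. The 2 loci thus differed in their neonatal level, MSTRG.195938 being above its prepuberty mean there and MSTRG.273926 below.

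The loci that fell included the most abundant locus in prepuberty. MSTRG.335283 (implied length 355 bases) had 26083, 33952 and 29737 FPKM in prepuberty and 14479 and 11832 in puberty, a 2.27-fold fall (log2 change -1.18, SE 0.23, limma adjusted p = 0.000469). The groups did not overlap. However, the log2 change was smaller than 1 in size with median of ratios scaling (-0.59), TPM (-0.87) and quantile normalization (-0.38). Each of these ended the call. Quantile normalization gives each rank the same value in every library, so for the few most abundant loci it shows rank only. TPM divides by the FPKM sum of the listed loci, on average 75861 in prepuberty and 61076 in puberty. MSTRG.335283 itself held 29924 and 13156 of these sums, so TPM offsets part of its own fall. MSTRG.385323 (7781 bases) had 4025, 3521 and 4079 FPKM in prepuberty and 876 and 725 in puberty, a 4.84-fold fall (limma adjusted p = 3.28e-06) that was under 2-fold only with quantile normalization (log2 change -0.65). MSTRG.385334 (1696 bases) had 331, 247 and 386 FPKM against 60.2 and 59.2, a 5.38-fold fall (limma adjusted p = 1.02e-06). Its prepuberty libraries varied by more than its puberty pair, and its call held under each scaling. gene1557 (781 bases) fell 2.40-fold, from 422, 404 and 433 FPKM to 186 and 164, and MSTRG.215779 (202 bases) fell 2.24-fold, from 211, 297 and 245 to 118 and 106. Both lost their calls under median of ratios scaling (log2 changes -0.67 and -0.56) and TPM (-0.95 and -0.83).

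The largest falls were of loci with moderate levels before puberty. MSTRG.334477 (338 bases) had 35.7, 40.4 and 38.5 FPKM in prepuberty and 0.249 and 0.0857 in puberty, only 4 reads in all, and its log2 change was -5.07 with an SE of 0.37 (limma adjusted p = 3.54e-07). Its ratio was 228, and 446 without puberty replicate 2, where 1 read remained (95% exact Poisson interval 79.97 to 17598). MSTRG.110062 (296 bases) had 43.9, 45.2 and 46.3 FPKM against 0.569 and 0.294, a 105-fold fall. In neonatal testes it stood at 11.7, 1.38 and 15.4 FPKM, so its mean in prepuberty was the highest of the 4 ages. gene8868 fell 39.5-fold, from 33.3, 40.5 and 37.1 FPKM to 0.921 and 0.950, the latter from 8 reads. gene17713, whose implied length of 6141 bases gives it far more reads, fell 28.5-fold, from 48.9, 55.8 and 47.6 FPKM to 1.95 and 1.61, with 767 reads behind the puberty values. gene26874 had 18.5, 26.7 and 24.8 FPKM in prepuberty and 0.225 and 0.695 in puberty, from 4 reads. Its ratio of 50.7 became 33.6 without puberty replicate 2 (95% exact Poisson interval 11.5 to 163, from 3 reads) and 104 without puberty replicate 3 (18.6 to 4103, from 1 read). The implied lengths of gene8868 and gene26874, 122 and 125 bases, may be fractions of the true ones, in which case their reads are more.

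Loci with consecutive assembly numbers often moved in the same direction. The longest such run was of 5 loci, MSTRG.202531 to MSTRG.202535, all of which fell. Their prepuberty means were 1.51, 1.65, 2.81, 3.64 and 2.91 FPKM in order of number, and their puberty means 0.0702, 0.131, 0.273, 0.337 and 0.354. The falls of the 5 loci were between 8.22-fold (MSTRG.202535) and 21.5-fold (MSTRG.202531), with limma adjusted p between 1.67e-07 and 1.91e-05. The prepuberty values of MSTRG.202534, 3.74, 3.67 and 3.50 FPKM, show how close the libraries lay, beside 0.434 and 0.241 in puberty. Of 569 pairs of tested loci with adjacent numbers, 99 fell together, 67 rose together and 28 moved in opposite directions. Where the lower-numbered locus fell, the next one fell in 64.3% of 154 pairs, against 21.6% of all tested loci, and where it rose, the next rose in 51.9% of 129 pairs, against 33.5%. The lower-numbered loci of the 569 pairs held 154 falls and 129 rises, so their mix was unlike that of all tested loci. The tables give no positions, so such loci may be pieces of 1 transcript, which was not tested.

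The 3 most abundant loci that were not called were MSTRG.178147, MSTRG.180257 and MSTRG.407379. MSTRG.178147 (1509 bases) had 17917, 14010 and 20960 FPKM in prepuberty and 17986 and 10732 in puberty. The ages overlapped, and the log2 change was -0.32 with an SE of 0.30 (limma adjusted p = 0.332). The change turned positive with quantile normalization, with median of ratios scaling and without puberty replicate 3. MSTRG.180257 had 1946, 1711 and 2532 FPKM against 1422 and 1237, which did not overlap, and missed the fold limit (log2 change -0.62, limma adjusted p = 0.0189). MSTRG.407379 varied most within prepuberty, with 1112, 474 and 513 FPKM, against 499.7 and 378 in puberty (limma adjusted p = 0.423).

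As a group, the loci that rose went from a minor to a larger part of the libraries. Their share of the scaling total was 0.185% ± 0.0140 (SD, n = 3) in prepuberty and 5.002% ± 0.405 (n = 2) in puberty. The loci that fell went from 10.8% ± 0.338 to 2.33% ± 0.397. The 2 most abundant of the latter, MSTRG.335283 and MSTRG.385323, made up 4.08% ± 0.143 in prepuberty and 1.09% ± 0.150 in puberty, and the rest went from 6.75% ± 0.481 to 1.24% ± 0.247. These loci were chosen on these libraries, so the shares describe them only.

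The neonatal and postpuberty libraries took no part in the means compared, although they share the estimate of the spread. In them, the loci that rose took 0.209% ± 0.0160 (SD, n = 3) and 6.77% ± 0.348 (n = 3) of the scaling total, and the loci that fell took 12.96% ± 0.962 and 2.25% ± 0.0693. All 3 postpuberty libraries lay above all 3 neonatal ones for 2570 of the 2601 loci that rose (98.8%), and below them for 1565 of the 1674 that fell (93.5%). Over all tested loci these patterns held for 42.4% and 42.7%. These counts describe non-overlap, and single loci were not tested between these ages here. The median locus that rose had 0.0505 FPKM in neonatal and 3.23 in postpuberty testes, and the median locus that fell had 3.34 and 0.582. For loci that were not called at puberty, the medians were 1.75 FPKM in neonatal and 1.11 in postpuberty testes.

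**Figure D4:**
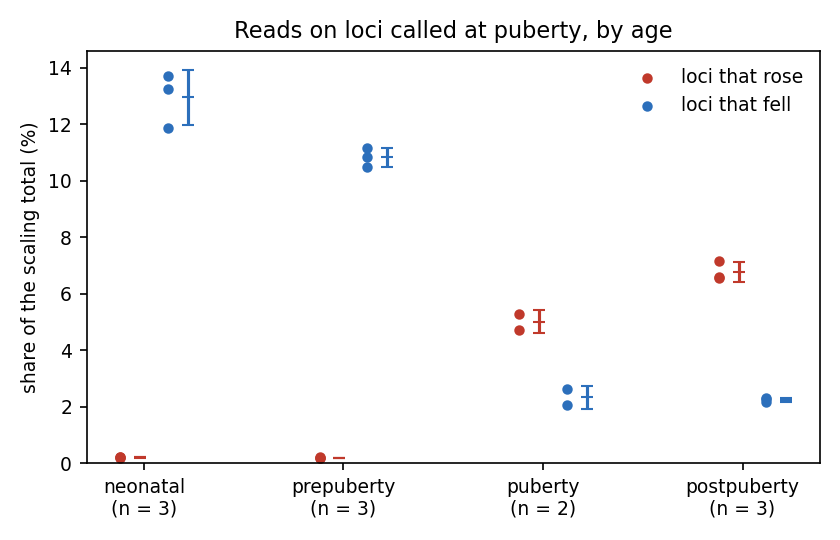
Points give the share of each library's scaling total (y axis, %) on the loci that rose or fell between prepuberty and puberty, by age (x axis), with the mean and SD beside them. Loci that rose take 0.185% in prepuberty and 5.002% in puberty, and loci that fell take 10.8% and 2.33%.

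Loci with a gene number were called about as often in each direction. Of 846 such loci, 194 rose (22.9%) and 209 fell (24.7%), beside 34.8% and 21.2% of the 6908 MSTRG loci. The median change was -0.34 in the former and -0.30 in the latter. The largest rises among them were those of gene13049, gene21344 and gene4459, and the largest falls those of gene8868, gene17713 and gene26874.

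Gaps between libraries of an age are limited by the level of a locus on the log2(FPKM + 1) scale, where low loci can hardly differ by 1. In the puberty pair, a log2 gap of 1 or more was found for 160 of all tested loci (2.06%). These were 102 of the loci that rose (3.92%), 13 of those that fell (0.777%) and 45 of those not called (1.29%). In prepuberty, where the loci that fell are the high ones, a range of 1 or more was found for 63 of them. The same held for 12 of the loci that rose and 151 of those not called. Among the puberty gaps, puberty replicate 2 was the higher in 52 of the 102 rises and puberty replicate 3 in 50. Puberty replicate 2 was the higher in all 13 of the falls and in 26 of the 45 loci not called. The median log2 difference, puberty replicate 2 minus 3, was 0.148 over all loci that fell and 0.040 over those not called. It was -0.024 over the loci that rose and 0.060 over all tested loci. The widest gaps among called loci, picked after their values were seen, were in gene12543 and gene3558. gene12543 (572 bases) had 0.717, 0.822 and 0.916 FPKM in prepuberty and 40.7 and 2.73 in puberty. Its ratio of 26.5 was 3.34 without puberty replicate 2 and 49.7 without puberty replicate 3. gene3558 (712 bases) had 0.734, 0.385 and 0.263 FPKM in prepuberty and 3.63 and 52.9 in puberty, with a ratio of 61.4. That ratio was 115 without puberty replicate 2 and 7.88 without puberty replicate 3, where the call was lost (log2 change 1.68, limma adjusted p = 0.25). In postpuberty testes gene3558 also varied, with 116, 112 and 5.75 FPKM.

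**Figure D5:**
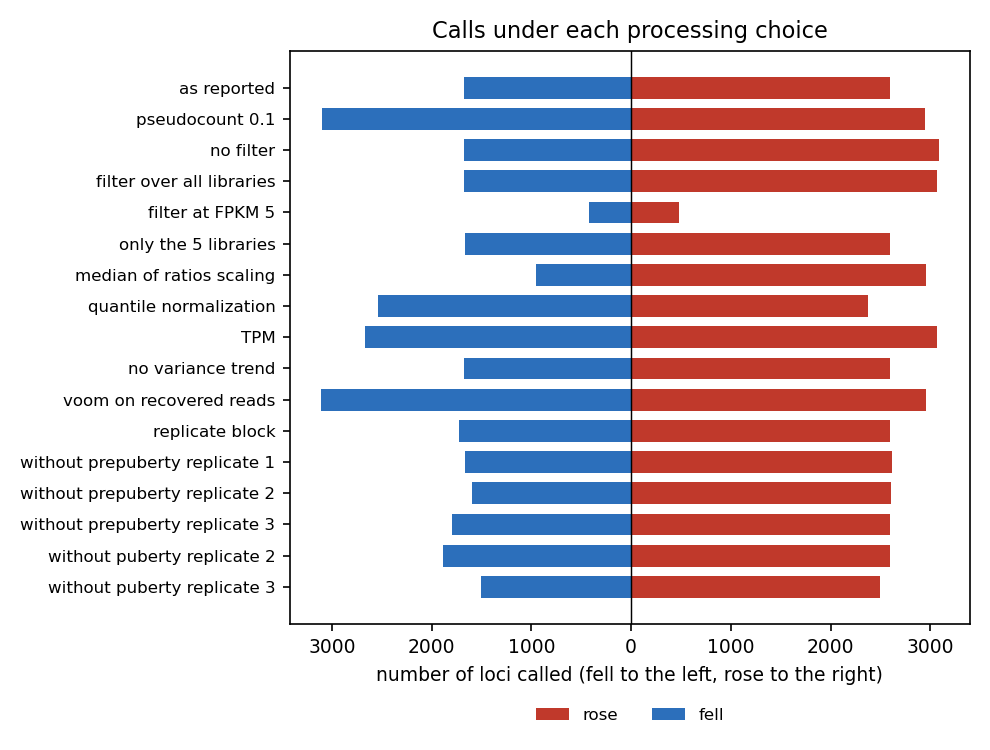
Bars give the number of loci that rose (to the right) and fell (to the left) as reported and under each of 16 processing alternatives. Rises stay between 2373 and 3086 apart from the filter at FPKM 5 (475), and falls range from 956 under median of ratios scaling to 3112 with voom on recovered reads, apart from the same filter (422).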

How the data were processed

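Testis RNA was measured in 11 libraries of 4 ages, and the 3 prepuberty and 2 puberty libraries were compared. The values are FPKM as deposited by the authors, 1 table per library without a header. HISAT2 2.1.0 and StringTie 2.1.1 are named in the submitters' processing notes, and the genome build, the counter and the filters were not given in the sources used here. Of 24116 loci, 0 matched the 28911 genes of assembly ARS1.2, so the gene and cell marker lists were not used.

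Values were analysed as log2(FPKM + 1), a scale that understates changes of low loci, with limma 3.58.1 in R 4.3.3: 1 mean per age over the 11 libraries (7 residual degrees of freedom), a variance trend, two-sided tests and Benjamini-Hochberg adjustment over the 7754 loci. The only p-values are limma's, and classes of loci were described by counts and not tested. A locus was called at an adjusted p under 0.05 and a log2 change of at least 1. The procedure was tested on simulated data in which only loci with a prepuberty mean of at least 1 FPKM were changed. That test did not cover rises of loci near 0 in prepuberty.

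Whole reads and lengths (called implied) were recovered from the steps in the FPKM for 24114 loci, within 0.02 reads. The true length is a multiple of the implied one if the counts have a common divisor. Floors and Poisson intervals cover counting error only. The listed loci held 19.0% to 19.4% of the scaling totals in prepuberty, and 15.0% and 13.6% in puberty replicates 2 and 3. Chi-square per locus was at least 12.3 between libraries of 1 age, so no library was a repeat of another. The labels do not say whether replicates are separate animals, and p-values then measure only the spread between these samples, which may be technical.

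The named loci are, among called loci, the 5 most abundant and the 5 most changed in each direction, the 3 largest rises and falls with a gene number, the 3 lowest adjusted p and the longest run of consecutive numbers, plus the 3 most abundant loci not called. Another 7 were picked after their values were seen. The loci and rules were chosen with earlier results of these data known.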

Additional observations from a re-analysis of the deposited data

How the results depend on the processing

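The number of loci that rose stayed within 1.5 times of 2601 in every alternative except the filter at FPKM 5, which left 1075 loci to test and 475 rises. The number that fell, 1674 as reported, was 3106 with a pseudocount of 0.1, 3112 with voom on recovered reads, 2666 under TPM, 2537 under quantile normalization, 956 under median of ratios scaling and 422 with the filter at FPKM 5. Of these, TPM also acted as a smaller pseudocount, because it raised all values before 1 was added. Leaving out 1 library of the 5 gave 2498 to 2615 rises and 1503 to 1886 falls, and with puberty replicate 2 or 3 left out the lone puberty library was assumed to vary like the other ages. Deviations from the age means correlated at -0.067 and -0.041 for the same-numbered libraries of these ages. With 2 puberty libraries their deviations mirror each other, so these values cannot settle whether replicate numbers pair the samples. The fit with a replicate block called 2593 rises and 1728 falls. Of the 32 named loci that were called, 27 kept their call in every alternative that tested them. Of the other 5, 4 fell and lost calls under scalings given beside them, and gene3558 also lost its call with voom on recovered reads (log2 change 4.94, limma adjusted p = 0.0871). Signs turned only for loci that were not called: MSTRG.178147 with quantile normalization (0.38), with median of ratios scaling (0.27) and with 1 library left out (-0.70 without puberty replicate 2 to 0.048 without puberty replicate 3), MSTRG.180257 with quantile normalization (0.65), and MSTRG.407379 with median of ratios scaling (0.020). With quantile normalization, MSTRG.178147 and MSTRG.180257 mirrored MSTRG.335283 (-0.38) and MSTRG.385323 (-0.65), because this method keeps only the rank of such abundant loci. The cause of the other shifts was not tested. Depth limits the folds of loci with few reads, whose Poisson intervals are wide, and with 2 puberty libraries the spread rests largely on the other ages; with the 5 libraries alone, limma called 2601 rises and 1670 falls.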

Other observations

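Calls also differed by implied length. Of 1042 tested loci with 500 to 1000 bases, 472 rose (45.3%) and 165 fell (15.8%). Of 2381 loci with 5000 bases or more, 583 rose (24.5%) and 710 fell (29.8%). Over all tested loci the shares were 33.5% and 21.6%. The shorter class of 200 to 500 bases (600 loci) lay near these, with 31.8% and 20.3%. The median locus that rose was 2046 bases long and the median locus that fell 3887 bases. By assembly number, loci from MSTRG.400000 up rose in 19.5% and fell in 27.5% of 236 cases, beside 39.8% and 18.0% of 857 loci numbered 200000 to 249999. These were the number ranges with the lowest and the highest share of rises. Over all 6908 MSTRG loci the shares were 34.8% and 21.2%. These shares were not tested.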
